A study of Mus musculus with 15 samples.

Results

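The 41 genes described here encode the pyruvate dehydrogenase complex and its kinases, the enzymes of the tricarboxylic acid (TCA) cycle, the uptake and beta-oxidation of fatty acids, the electron transfer flavoproteins, the use of ketone bodies, and a pair of regulators of these pathways. They were chosen by name, with earlier results of these data known. Each gene was represented by a probe set (the group of array probes designed for one transcript) whose annotation holds that gene symbol alone, and where several did, by the one with the highest mean over all arrays. Of the 41 genes, 39 had such a probe set, and all 39 passed the filter on dim signals, among 14314 genes tested of 18193 named. Acsl1, which activates long-chain fatty acids, and Cpt1b, the muscle form of the enzyme that links them to carnitine, were matched by none whose annotation holds their symbol alone and were not analysed here.

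The arrays measured total RNA from knee joint synovium of mice, in 5 groups of 3 arrays. In collagen-induced arthritis (CIA), animals are immunized with type II collagen, in doses of 100 µg with the adjuvant named FCA on day 0 and with a further 100 µg i.p. on day 21. There were 4 CIA groups, with no, mild, moderate or severe swelling of the joint, and a healthy naive group, whose labels carry that same protocol text, taken here as general wording for all samples. If naive mice had in fact been immunized, the comparisons with naive would mean something else, and neither strain, sex, age nor separate animals are given in the labels used here, so the p-values measure the spread between these arrays, which may be technical.

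Pyruvate from glycolysis is turned into acetyl-CoA by the pyruvate dehydrogenase complex, which its kinases switch off by phosphorylation. Fatty acids reach the mitochondrial matrix through the carnitine shuttle and are cut into acetyl-CoA by beta-oxidation, ketone bodies give acetyl-CoA through enzymes of their own, and the TCA cycle oxidizes all of it. Muscle, above all its slow, oxidative fibres, is rich in this machinery, and the coactivator encoded by Ppargc1a and the muscle protein encoded by Perm1 raise its expression.

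All values are MAS5 signals in intensity units, whose trimmed mean was 150 on each array as deposited, with array medians from 36.3 to 47.6, and the number of arrays limits their precision. Log2 fold changes are on the scale of log2(signal + 16), with standard errors (SE) from limma, and a gene counted as called where its p, adjusted by Benjamini-Hochberg over all tested genes, was under 0.05. The tissue labelled synovium carried much muscle RNA. Acta1, the skeletal muscle actin gene, and Ckm, the muscle creatine kinase gene, had mean signals of 10603 ± 1320 and 10767 ± 1450 (SD, n = 3) in naive joints, where the brightest probe set of an array lay between 11307 and 13409. Markers of fibroblasts, which make up much of the synovium, were also present, with 12 of 12 measured. In such bulk tissue, fewer cells of a type and less RNA per cell cannot be told apart.

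The genes of oxidative metabolism were close to their naive level in CIA joints without swelling and lower in swollen joints. Expressed as a percentage of the naive mean, the median gene had 99% in unswollen CIA joints and 59.4%, 39.3% and 40.9% in those of mild, moderate and severe grade. With severe swelling 38 of the 39 genes were called lower than in naive joints and 0 higher, with a median log2 fold change of -1.31, while 22.9% of all tested genes were called lower and their median was 0.11. Slc25a20 was the gene not called. With moderate swelling 36 of 39 were called lower (median -1.33, all genes 0.06), against 23.8% of all genes. With mild swelling 32 were called lower and 1, Pdk4, higher (median -0.77, all genes 0.05), against 17.0% of all genes called lower and 23.1% higher. Without swelling 1 of 39, Bdh1, was called lower and 0 higher (median -0.06, all genes -0.01), against 1.76% of all genes lower. By limma's unadjusted p under 0.05, 6 were lower and 1 higher in that comparison, a count for which the share of all genes is not given here. These comparisons share the 3 naive arrays. The comparison of severe with no swelling does not use them, and 36 of 39 were called lower there, against 22.0% of all genes. Any difference among the 5 groups was called for 38 of the 39, against 60.7% of all genes. The gene not called was Suclg2 (adjusted p = 0.104).

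**Figure D1:**
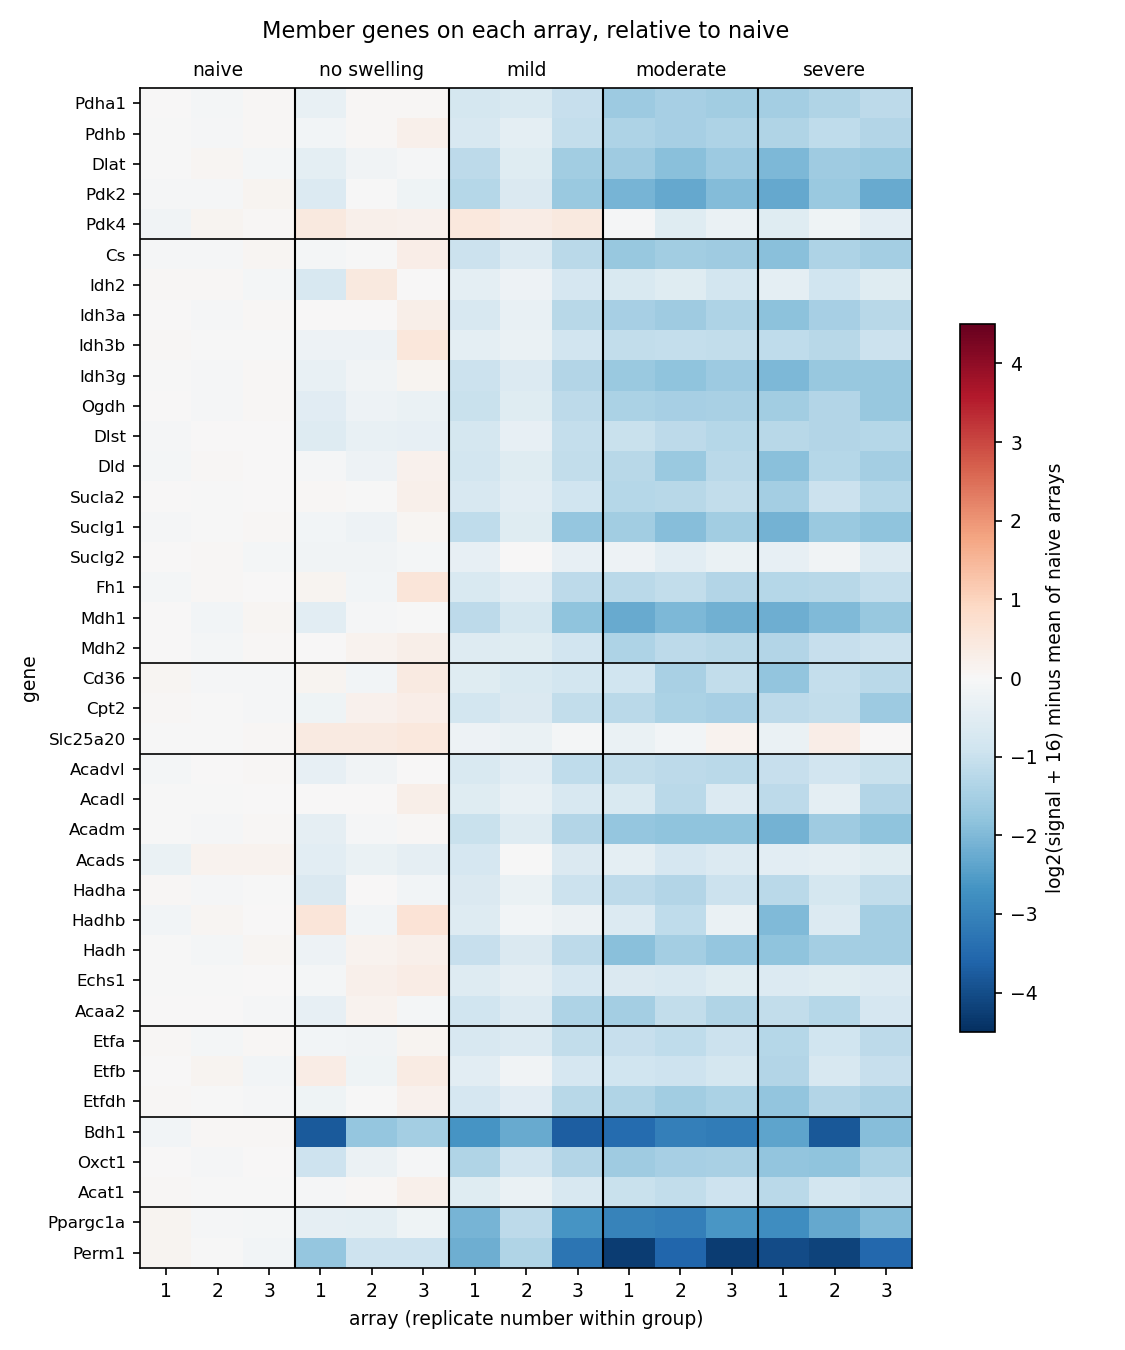
Log2(signal + 16) of 39 genes (rows, grouped by role with horizontal lines) on 15 arrays (columns, grouped by swelling), minus the gene's mean over the 3 naive arrays, so that blue is lower and red higher than naive. The moderate and severe columns are blue for most genes, the no-swelling columns are near white except for Bdh1 and Perm1, and Pdk4 and Slc25a20 stay pale throughout.

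The arrays of moderate and severe swelling lay apart from those of unswollen joints. For 34 of the 39 genes all 6 moderate and severe arrays were below all 6 naive and no-swelling arrays, which held for 17.7% of all tested genes. The exceptions were Pdk4, Idh2, Slc25a20, Acads and Bdh1. The median of the 39 genes' log2 differences from naive was between -0.21 and 0.11 on the no-swelling arrays, -0.74, -0.53 and -1.10 on mild replicates 1, 2 and 3, between -1.42 and -1.28 with moderate and between -1.53 and -1.25 with severe swelling. Mild swelling thus had the widest spread, with replicate 2 nearest to the unswollen joints and replicate 3 nearest to moderate swelling.

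The level set for each array bears on these values. Of the scalings tried, aligning each array on 9 hybridization control probe sets or on skeletal muscle genes moved the median of all tested genes in severe swelling to 0.53 and 0.84, and the median of the 39 genes to -0.81 and -0.44. Relative to all genes it was -1.42 as deposited, -1.34 on the hybridization controls and -1.28 on the muscle genes. The calls fell to 19 lower and 0 higher on the hybridization controls and to 21 lower and 3 higher (Pdk4, Slc25a20 and Suclg2) on the muscle genes. The shares of all genes called, such as 22.9% lower in severe swelling, are those as deposited. The shares under these scalings are not given here, so the counts under them have no such background. With mild swelling the medians were -0.13 and -0.10, with 3 and 7 called lower, and Bdh1, Perm1 and Ppargc1a were the genes called lower on both. With severe swelling 18 genes were called lower on both, namely Pdha1, Dlat, Pdk2, Cs, Idh3a, Idh3g, Ogdh, Dld, Suclg1, Mdh1, Cd36, Acadm, Hadh, Etfdh, Bdh1, Oxct1, Perm1 and Ppargc1a. The median of the set stayed below 0 in mild, moderate and severe swelling under all scalings. Single genes took the other sign, though, 10 in mild swelling on the hybridization controls and 12 on the muscle genes, 3 and 10 in moderate swelling, and 3 and 5 in severe swelling. In severe swelling these were Acads, Pdk4 and Suclg2, with Echs1 and Idh2 on the muscle genes alone, while Slc25a20 took the other sign with aligned medians. In moderate swelling Pdk4 also did so after quantile normalization.

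The promoters of the 41 genes were searched for the binding motifs of factors known to act on mitochondrial genes. RefSeq promoters (build GRCm38.p6, 250 bases before to 50 after a gene's start) were matched for 37 of the 41 genes; Idh3a, Cpt1b, Acaa2 and Acat1 had none in the table. On either strand, the estrogen-related receptor element TCAAGGTCA was in 0 of 37, against 0.466% of all genes with a promoter, and the shorter AAGGTCA, which the full element contains, was in 3 of 37 (8.11%, against 5.38%), those of Acadm, Ogdh and Perm1. The core of the nuclear respiratory factor 1 motif, GCGCATGCG, was in 3 of 37 (8.11%, against 1.95%), those of Acadm, Etfdh and Ogdh. The matches describe these letters alone. The lines below show those of the fatty acid genes Acadm and Etfdh, of Ogdh and of Perm1 on the gene's strand, upstream of its start, with the match in capitals.
Perm1, AAGGTCA on the opposite strand, chr4:156215700-156215756 (+): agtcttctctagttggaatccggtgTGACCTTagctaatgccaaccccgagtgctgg
Acadm, AAGGTCA on the opposite strand, chr3:153944861-153944893 (-): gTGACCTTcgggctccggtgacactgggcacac
Acadm, GCGCATGCG on the opposite strand, chr3:153944769-153944827 (-): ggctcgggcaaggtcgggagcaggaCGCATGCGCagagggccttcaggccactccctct
Etfdh, GCGCATGCG on both strands, chr3:79628862-79628920 (-): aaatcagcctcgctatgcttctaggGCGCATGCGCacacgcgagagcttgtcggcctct
Ogdh, GCGCATGCG, chr11:6292518-6292557 (+): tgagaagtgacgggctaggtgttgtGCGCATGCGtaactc

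As deposited, the pyruvate dehydrogenase complex was lower at each grade of swelling, and its kinases parted. Of the 5 genes of the complex and its kinases, 4 were called lower in mild swelling, against 17.0% of all genes. On the hybridization controls 0 were called lower in mild swelling, and on the muscle genes 1. Pdha1, which encodes the catalytic subunit, had signals of 6748, 6128 and 6912 on the naive arrays, 5279.5, 6853 and 6809 without swelling, 3765, 4126 and 3166 with mild, 2129, 2299.9 and 2228.5 with moderate, and 2277, 2545 and 2896 with severe swelling. The naive and no-swelling arrays were all above the mild ones, and the mild ones all above moderate and severe. Its log2 fold change against naive was -0.84 ± 0.14 (adjusted p = 0.0002) with mild and -1.36 ± 0.14 (adjusted p = 1.01e-06) with severe swelling. The mild call was lost on the hybridization controls (-0.20, adjusted p = 0.643) and on the muscle genes (-0.16, adjusted p = 0.282). Pdhb, the partner subunit of the same enzyme, had signals of 3508, 3374 and 3672 on the naive arrays, 3241, 3627 and 4161 without swelling, 2112, 2599 and 1683 with mild, 1321, 1249 and 1320.2 with moderate, and 1361, 1581 and 1404 with severe swelling, in the same order, and fell by 1.27 ± 0.14 in severe swelling (adjusted p = 2.59e-06), a call lost on the hybridization controls (-0.76, adjusted p = 0.0557). Dlat, which encodes the core acetyltransferase of the complex, had 28.9% of its naive mean in severe swelling.

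Pdk2, one of the kinases that inactivate the complex, fell with its target, whereas Pdk4, the kinase known to be induced by fasting and fatty acids, did not follow this course. Pdk2 signals were 2404, 2399 and 2723 on the naive arrays, 1624, 2482 and 2201 without swelling, 1018, 1605 and 774.5 with mild, 579, 489 and 638 with moderate, and 494, 768 and 513 with severe swelling. All mild arrays were below all unswollen ones, the nearest being mild replicate 2 and no-swelling replicate 1. The log2 fold change was -0.27 ± 0.23 without swelling (adjusted p = 0.581), -1.20 ± 0.23 (adjusted p = 0.000784) with mild and -2.08 ± 0.23 (adjusted p = 2.5e-06) with severe swelling. The mild call was lost on the hybridization controls (-0.56, adjusted p = 0.207). Pdk4 signals were 3594, 4330.3 and 4172 on the naive arrays, 5412, 4764 and 4564 without swelling, 5564.5, 5045 and 5459.5 with mild, 3862, 2728 and 3270.5 with moderate, and 2719.7, 3519.9 and 2904 with severe swelling. All mild arrays, and all no-swelling arrays, were above all naive arrays, moderate replicate 1 lay in the naive range, and the other moderate and all severe arrays lay below it. Pdk4 was called higher in mild swelling (0.41 ± 0.14, adjusted p = 0.0295) and lower in severe swelling (-0.41 ± 0.14, adjusted p = 0.0230), and its step from mild to moderate was -0.71 ± 0.14 (adjusted p = 0.0115), a call lost without moderate replicate 2 (0.0539). The call of that step was also lost on the hybridization controls (-0.86, adjusted p = 0.184), on the muscle genes (-0.34, 0.17) and with only the groups compared (0.0851). Both calls against naive were lost when single arrays were left out, with adjusted p up to 0.126 in mild (without naive replicate 1 or 3 or mild replicate 1 or 3) and 0.0955 in severe swelling (without severe replicate 1 or 3, or naive replicate 2 or 3). The mild difference was 1.05 on the hybridization controls (adjusted p = 0.00459) and 1.09 on the muscle genes (0.000114). The median of all genes was 0.58 and 0.60 there. The mild call was lost with aligned array medians (0.30, adjusted p = 0.195), and the severe call after quantile normalization (-0.18, 0.349). In severe swelling the direction of Pdk4 turned with scaling on hybridization controls (0.11) and on muscle genes (0.49).

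All 14 genes of the TCA cycle were called lower in severe swelling as deposited, against 22.9% of all genes. On the hybridization controls 7 were lower and on the muscle genes 9. In mild swelling 12 were lower as deposited, against 17.0% of all genes, 0 on the hybridization controls and 2 on the muscle genes. The mild calls of Cs and Idh3g below were lost on both of these scalings. Cs encodes citrate synthase, the entry enzyme of the cycle. Its signals were 5189, 5154 and 5694 on the naive arrays, 5054, 5253.5 and 6619 without swelling, 2719, 3493.5 and 2319 with mild, 1611, 1797 and 1758 with moderate, and 1434, 2009 and 1855 with severe swelling. Unswollen arrays were all above mild, and mild all above moderate and severe. The log2 fold change was 0.07 ± 0.16 without swelling, -0.93 ± 0.16 (adjusted p = 0.000339) with mild and -1.60 ± 0.16 (adjusted p = 9.7e-07) with severe swelling. Idh3g encodes a regulatory subunit of the NAD-linked isocitrate dehydrogenase, and its signals were 4331, 4197 and 4574 on the naive arrays, 3456, 3929.8 and 4699 without swelling, 2245, 2849 and 1742 with mild, 1377, 1234 and 1393 with moderate, and 1066, 1331 and 1317 with severe swelling. They too fell in 2 steps without overlap, with a log2 fold change of -0.96 ± 0.16 (adjusted p = 0.000281) in mild and -1.81 ± 0.16 (adjusted p = 4.47e-07) in severe swelling. The other subunits, Idh3a and Idh3b, had 35.1% and 45.5% of their naive mean in severe swelling. Idh2, the NADP-linked mitochondrial isocitrate dehydrogenase, had 64.1%.

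Suclg2 and Sucla2 encode the alternative beta subunits of succinyl-CoA ligase, which make GTP and ATP respectively, and differed in how far they were lower. Suclg2 signals were 704, 721 and 659 on the naive arrays, 625, 627 and 646 without swelling, 539, 708 and 533 with mild, 587, 494 and 564 with moderate, and 529.6, 615 and 449 with severe swelling. On this probe set the mild, moderate and severe arrays were close to the unswollen ones, and mild replicate 2 was within the naive range. Its log2 fold change was -0.23 ± 0.13 (adjusted p = 0.182) in mild swelling. It was called lower there without mild replicate 2 (-0.36, adjusted p = 0.0330), with averaged probe sets (-0.42, 0.0103) and with array quality weights (-0.32, 0.0104), and higher on the muscle genes (0.43, 0.0365). In severe swelling it was -0.39 ± 0.13 (adjusted p = 0.0221), a call lost without severe replicate 3 or naive replicate 1 or 2 (adjusted p up to 0.117). The direction there turned with scaling on hybridization controls (0.11) and on muscle genes (0.48). The other probe set of Suclg2 had mean signals of 264 in naive joints and 251, 166, 170 and 160 without and with mild, moderate and severe swelling. In severe swelling it was called lower (-0.66, adjusted p = 0.00113). Sucla2 went from a mean of 5138 ± 34.9 (SD, n = 3) in naive joints to 2175 ± 448 in severe swelling, 42.3% of naive, and Suclg1, the subunit common to both forms, had 27.3%. The difference between Suclg2 and Sucla2 was not tested.

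The remaining TCA genes had between 25.5% and 46.5% of their naive mean in severe swelling. Mdh1, the cytosolic malate dehydrogenase, was at the lower end and Mdh2, its mitochondrial counterpart, at the upper. The 3 genes of the 2-oxoglutarate dehydrogenase complex, Ogdh, Dlst and Dld, had 34.3%, 40.9% and 33.4%, and Fh1, which encodes fumarase, had 43.5%. Other probe sets went against the one used for Dlst and Mdh1 in severe swelling. Of the probe sets, 1 of 4 for Dlst was called higher (0.40, adjusted p = 0.0320), with mean signals of 111 in naive joints and 150 in severe swelling. For Mdh1, 1 of 5 was called higher (0.95, adjusted p = 0.0373), with dim mean signals of 9.63 and 37.3. Of the 28 genes with several probe sets, 18 had every tested probe set called lower in severe swelling.

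**Figure D2:**
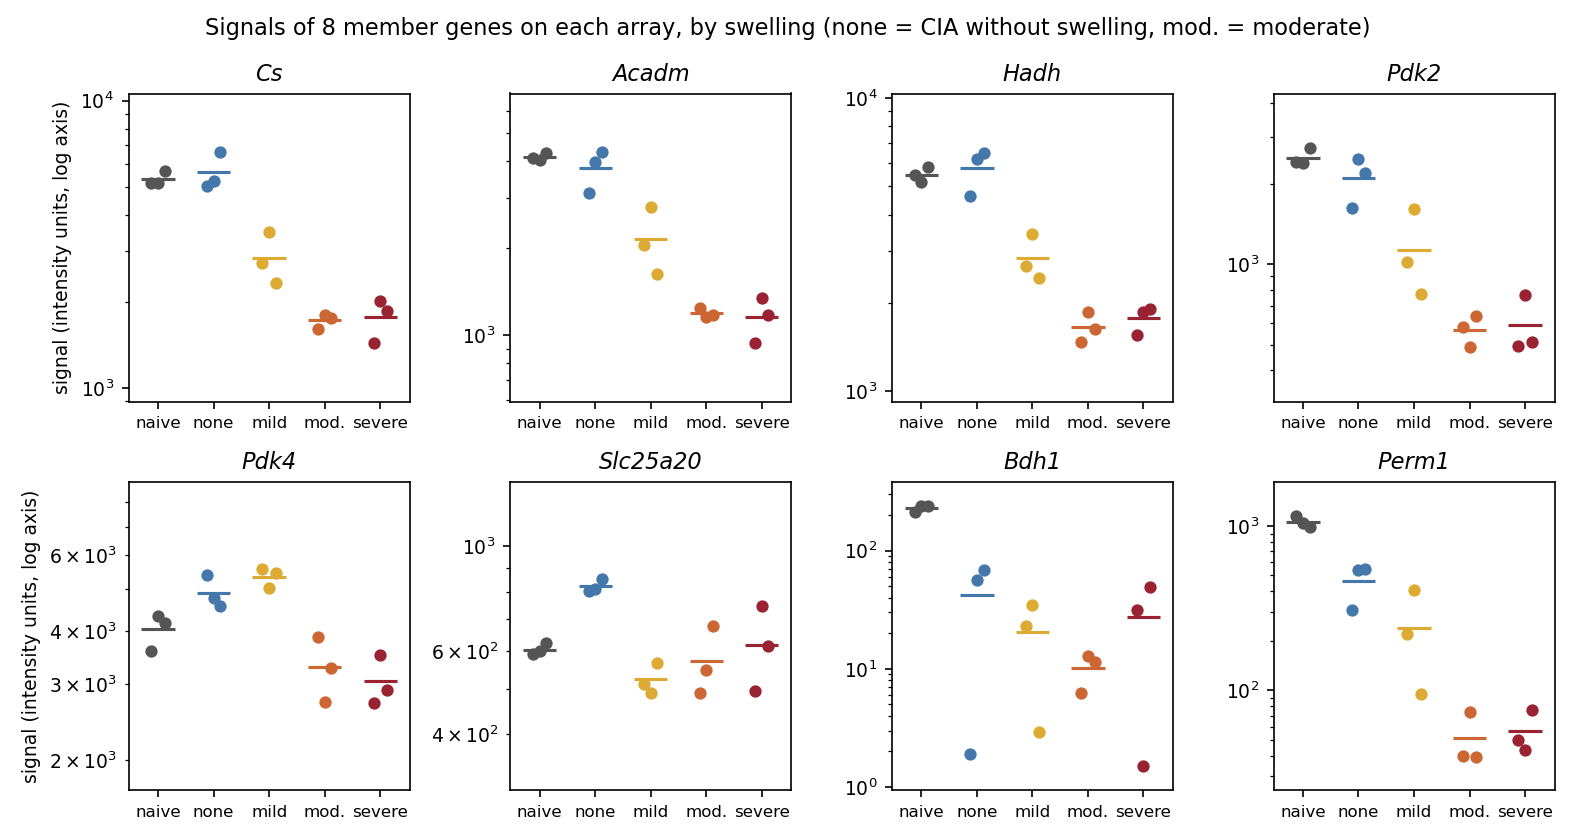
Signals of 8 genes on each array (points, intensity units on a log axis, a scale of its own for each gene) by group, with the group mean as a bar. Cs, Acadm, Hadh and Pdk2 step down from unswollen to mild to moderate and stay there in severe swelling, Pdk4 is highest in mild swelling, Slc25a20 is highest without swelling, and Bdh1 and Perm1 are already lower without swelling.

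In fatty acid uptake and the carnitine shuttle, Cd36 and Cpt2 were called lower in severe swelling and Slc25a20 was not called. Cd36, a membrane receptor that takes up fatty acids, had signals of 1466, 1332 and 1305.5 on the naive arrays, 1483.5, 1255 and 1793.5 without swelling, 928, 842 and 761 with mild, 733, 488 and 631 with moderate, and 384.5, 646 and 585 with severe swelling. All swollen arrays were below all unswollen arrays, and the log2 fold change in severe swelling was -1.35 ± 0.19 (adjusted p = 1.9e-05). Cpt2, which frees fatty acids from carnitine inside mitochondria, had signals of 935, 891 and 865 on the naive arrays, 791, 1019.6 and 1116 without swelling, 502, 572 and 409.5 with mild, 381, 326 and 309 with moderate, and 383, 408 and 278 with severe swelling. Swollen and unswollen arrays again did not overlap, and Cpt2 changed by -0.85 ± 0.16 (adjusted p = 0.000795) in mild and -1.31 ± 0.16 (adjusted p = 7.27e-06) in severe swelling. Both calls were lost on the hybridization controls (-0.22 and -0.81, adjusted p = 0.655 and 0.0577) and on the muscle genes (-0.19 and -0.44, 0.425 and 0.051).

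Slc25a20 encodes the carrier that exchanges acylcarnitine and carnitine across the inner membrane. Its signals were 590.4, 599 and 623 on the naive arrays, 805, 811 and 853 without swelling, 511, 490.1 and 567 with mild, 488, 547 and 678 with moderate, and 494, 747 and 615 with severe swelling. The no-swelling arrays were all above every other array, and the moderate and severe arrays spread around the naive level. On the log2 scale Slc25a20 differed from naive by 0.44 ± 0.14 (adjusted p = 0.112) without swelling and 0.01 ± 0.14 (adjusted p = 0.944) in severe swelling, so neither difference was called. Its other probe set had mean signals of 429 in naive joints and 262 in severe swelling and was called lower (-0.70), and the mean of both probe sets was called lower as well (-0.34, adjusted p = 0.0466), so the direction in severe swelling depends on the probe set.

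All 9 genes of beta-oxidation were called lower in severe swelling as deposited, against 22.9% of all genes. On the hybridization controls 3 were lower and on the muscle genes 2. In mild swelling 7 were lower as deposited, against 17.0% of all genes, and 0 on either of these scalings. The mild calls of Hadh and Acadm below were thus lost on both. Hadh encodes the dehydrogenase of short and medium chains, and its signals were 5448, 5182 and 5802 on the naive arrays, 4619, 6169 and 6474 without swelling, 2675, 3444 and 2424.5 with mild, 1472, 1867 and 1623.5 with moderate, and 1549.8, 1865 and 1898 with severe swelling. Swollen arrays were all below unswollen ones, and moderate and severe arrays all below mild, with a log2 fold change of -0.95 ± 0.16 (adjusted p = 0.000234) in mild and -1.62 ± 0.16 (adjusted p = 7.52e-07) in severe swelling. Acadm, the medium-chain acyl-CoA dehydrogenase whose promoter matches are printed above, had signals of 4115, 4033 and 4295 on the naive arrays, 3109.9, 3992 and 4296 without swelling, 2052, 2773 and 1635 with mild, 1241, 1156 and 1175.5 with moderate, and 944, 1348 and 1178 with severe swelling, in the same order. Its log2 fold change was -0.14 ± 0.18 (adjusted p = 0.735) without, -0.97 ± 0.18 (adjusted p = 0.000479) with mild and -1.84 ± 0.18 (adjusted p = 6.9e-07) with severe swelling. Acads, the short-chain dehydrogenase, had signals of 453, 624 and 622 on the naive arrays, 400.3, 452 and 422 without swelling, 323, 548 and 353 with mild, 409, 322 and 363 with moderate, and 397, 409.6 and 381 with severe swelling. Its groups overlapped, with mild replicate 2 above naive replicate 1, and the log2 fold change of -0.49 ± 0.17 (adjusted p = 0.0264) in severe swelling was lost without severe replicate 1 or 3, or naive replicate 2 or 3 (adjusted p up to 0.0992) and was 0.01 with scaling on hybridization controls and 0.38 on muscle genes.

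The other genes of beta-oxidation lay between these. In severe swelling Acadvl and Acadl, the dehydrogenases of very long and long chains, had 50.6% and 52.4% of their naive mean. Hadha and Hadhb, the subunits of the trifunctional protein, had 49.0% and 41.5%. On the probe set used, Hadhb had 130% without swelling and was called neither in mild nor in moderate swelling. Another Hadhb probe set had mean signals of 3542 in naive and 3316 in unswollen CIA joints. Its means at the mild, moderate and severe grades were 1712, 1174 and 1268. Of the 3 Hadhb probe sets, 2 were called lower in mild swelling, and all 3 lay between -1.06 and -0.33. The course of Hadhb thus depends on the probe set. In severe swelling Echs1, the short-chain enoyl-CoA hydratase, had 65.9% of its naive mean and Acaa2, a mitochondrial thiolase, 48.1%.

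The electron transfer genes, which pass electrons from beta-oxidation to ubiquinone, were all called lower in severe swelling as deposited (3 of 3, against 22.9% of all genes). Etfdh alone was also called on the hybridization controls and on the muscle genes. Etfdh, the oxidoreductase at the end of this chain, had signals of 999, 963.5 and 942 on the naive arrays, 835, 954 and 1100.1 without swelling, 573, 674 and 399.6 with mild, 366, 320.0 and 354.5 with moderate, and 271, 379 and 342 with severe swelling. All mild arrays were below all unswollen ones and above all moderate and severe ones, and the log2 fold change was -0.83 ± 0.17 (adjusted p = 0.00116) in mild and -1.52 ± 0.17 (adjusted p = 2.58e-06) in severe swelling. The mild call was lost on the hybridization controls (-0.20, adjusted p = 0.686) and on the muscle genes (-0.17, adjusted p = 0.384). Etfa, the alpha subunit of the flavoprotein, had signals of 2247, 2050.5 and 2277 on the naive arrays, 2030.4, 1948 and 2363 without swelling, 1326, 1427 and 1009.9 with mild, 1047, 982 and 1115 with moderate, and 886, 1171 and 966 with severe swelling. The lowest mild array overlapped the moderate and severe range, and the log2 fold change in severe swelling was -1.12 ± 0.14 (adjusted p = 7.52e-06). Etfb, the beta subunit, had signals of 3559, 3753 and 3171 on the naive arrays, 4440.3, 3044.5 and 4524 without swelling, 2509.9, 3149 and 2048 with mild, 1879, 1827 and 2024 with moderate, and 1396, 2108 and 1674 with severe swelling. Mild replicate 2 lay above no-swelling replicate 2, the difference in mild swelling was not called (-0.46 ± 0.18 (adjusted p = 0.0578)), and that in severe swelling was (-1.03 ± 0.18 (adjusted p = 0.000194)). In mild swelling it was called without mild replicate 2 (adjusted p = 0.0153), no-swelling replicate 2 (0.0359) or severe replicate 1 or 2 (0.0488 and 0.0411), and its sign turned on the hybridization controls (0.18) and the muscle genes (0.22). In severe swelling the values on these scalings were -0.61 and -0.23 for Etfa (adjusted p = 0.151 and 0.128) and -0.52 and -0.14 for Etfb (0.203 and 0.438).

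Of the 3 genes of ketone body use, Bdh1 was the only one of all 39 called in CIA joints without swelling. Bdh1 encodes 3-hydroxybutyrate dehydrogenase, the first step of ketone use. Its signals were 211, 237 and 238 on the naive arrays, 1.9, 56.6 and 68.9 without swelling, 23.1, 34.9 and 2.9 with mild, 6.2, 12.8 and 11.4 with moderate, and 31.4, 1.5 and 49.3 with severe swelling. The naive arrays were at 211.3 or above and the CIA arrays at 68.9 or below, and the CIA groups overlapped each other. Against naive, Bdh1 had a log2 fold change of -2.35 ± 0.54 (adjusted p = 0.0288) without, -2.87 ± 0.54 (adjusted p = 0.000617) with mild and -2.69 ± 0.54 (adjusted p = 0.000491) with severe swelling. Signals this low make the size depend on the pseudocount, and the call without swelling was lost with a pseudocount of 1 (-3.34, adjusted p = 0.138) and without naive replicate 1, 2 or 3 or no-swelling replicate 1 (adjusted p from 0.0841 to 0.116). The call without swelling was also lost on the muscle genes (-2.17, adjusted p = 0.0548). The gene's other probe set was also called lower in that comparison (-1.49).

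Oxct1 and Acat1 complete ketone use. Oxct1 encodes the transferase that activates acetoacetate, and its signals were 3238, 3054 and 3240.1 on the naive arrays, 1660.4, 2628 and 3059 without swelling, 1244, 1747.5 and 1266 with mild, 1044, 1125 and 1152 with moderate, and 907, 903 and 1177 with severe swelling. No-swelling replicate 1 was lower than the other unswollen arrays and below mild replicate 2, so that these groups overlapped, and the log2 fold change was -0.42 ± 0.19 (adjusted p = 0.25) without and -1.67 ± 0.19 (adjusted p = 3.17e-06) with severe swelling. Acat1, the mitochondrial acetoacetyl-CoA thiolase, had signals of 2453, 2382 and 2343 on the naive arrays, 2332, 2491 and 2807 without swelling, 1638, 1923 and 1443 with mild, 1199, 1092 and 1258 with moderate, and 1015, 1336 and 1217 with severe swelling. Its swollen arrays were all below the unswollen ones. The log2 fold change was -0.53 ± 0.13 (adjusted p = 0.00458) in mild swelling, which turned with scaling on hybridization controls (0.11) and on muscle genes (0.15), and -1.01 ± 0.13 (adjusted p = 9.68e-06) in severe swelling, a call lost on both (-0.50 and -0.12, adjusted p = 0.242 and 0.42).

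On the probe sets used, the regulator Perm1 fell further than every enzyme in severe swelling, and the regulator Ppargc1a further than every enzyme but Bdh1. Other probe sets of Idh3a (-2.75 and -2.55), Dlat (-2.50) and Pdha1 (-2.39) fell further than the one used for Ppargc1a (-2.36). The probe sets of Ppargc1a lay between -2.76 and -1.95. Perm1 encodes a muscle protein induced by the PGC-1 coactivators, and the match to AAGGTCA in its promoter is printed above. Its signals were 1157, 1049 and 980.2 on the naive arrays, 308, 543 and 544.5 without swelling, 219, 406 and 94.6 with mild, 40, 74.4 and 39.6 with moderate, and 50.2, 43.5 and 76.5 with severe swelling. All no-swelling arrays were already below all naive arrays, and all moderate and severe arrays were below all mild ones. The log2 fold change was -1.21 ± 0.36 (adjusted p = 0.0842) without swelling, which was not called, -2.27 ± 0.36 (adjusted p = 0.000186) with mild, -4.04 ± 0.36 (adjusted p = 4.55e-07) with moderate and -3.91 ± 0.36 (adjusted p = 5.63e-07) with severe swelling. Without swelling it was called when only the groups compared were fitted (adjusted p = 0.0140), with a pseudocount of 64 (0.0459), on the hybridization controls (0.0224), with array quality weights (0.0198) and without mild replicate 2 or 3 (0.0269 and 0.0233). A dim second probe set of Perm1 had mean signals of 36.5 in naive joints and 54.8 in severe swelling and was not called.

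Ppargc1a encodes the coactivator PGC-1 alpha. Its signals were 418, 370.5 and 359.6 on the naive arrays, 288, 280.3 and 331.5 without swelling, 77.9, 159 and 47.9 with mild, 33.2, 31.2 and 48.2 with moderate, and 41.2, 63.7 and 86.0 with severe swelling. No-swelling arrays were below naive arrays, mild arrays below those, and 2 of the 3 mild arrays overlapped the severe range. The log2 fold change was -0.34 ± 0.28 (adjusted p = 0.576) without swelling, -1.97 ± 0.28 (adjusted p = 7.38e-05) with mild, -2.91 ± 0.28 (adjusted p = 7.46e-07) with moderate and -2.36 ± 0.28 (adjusted p = 4.52e-06) with severe swelling. All 5 of its probe sets were called lower in mild and in severe swelling. The step from no to mild swelling was -1.63 ± 0.28 for Ppargc1a (adjusted p = 0.000444) and -1.07 ± 0.36 for Perm1 (adjusted p = 0.0292), the latter lost without no-swelling replicate 2 or 3 or mild replicate 1 or 3 (adjusted p up to 0.171). That call of Perm1 was also lost on the hybridization controls (-0.33, adjusted p = 0.431) and on the muscle genes (-0.39, 0.295). With averaged probe sets (-0.54, 0.112) and with only the groups compared (0.0907) it was lost as well.

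**Figure D3:**
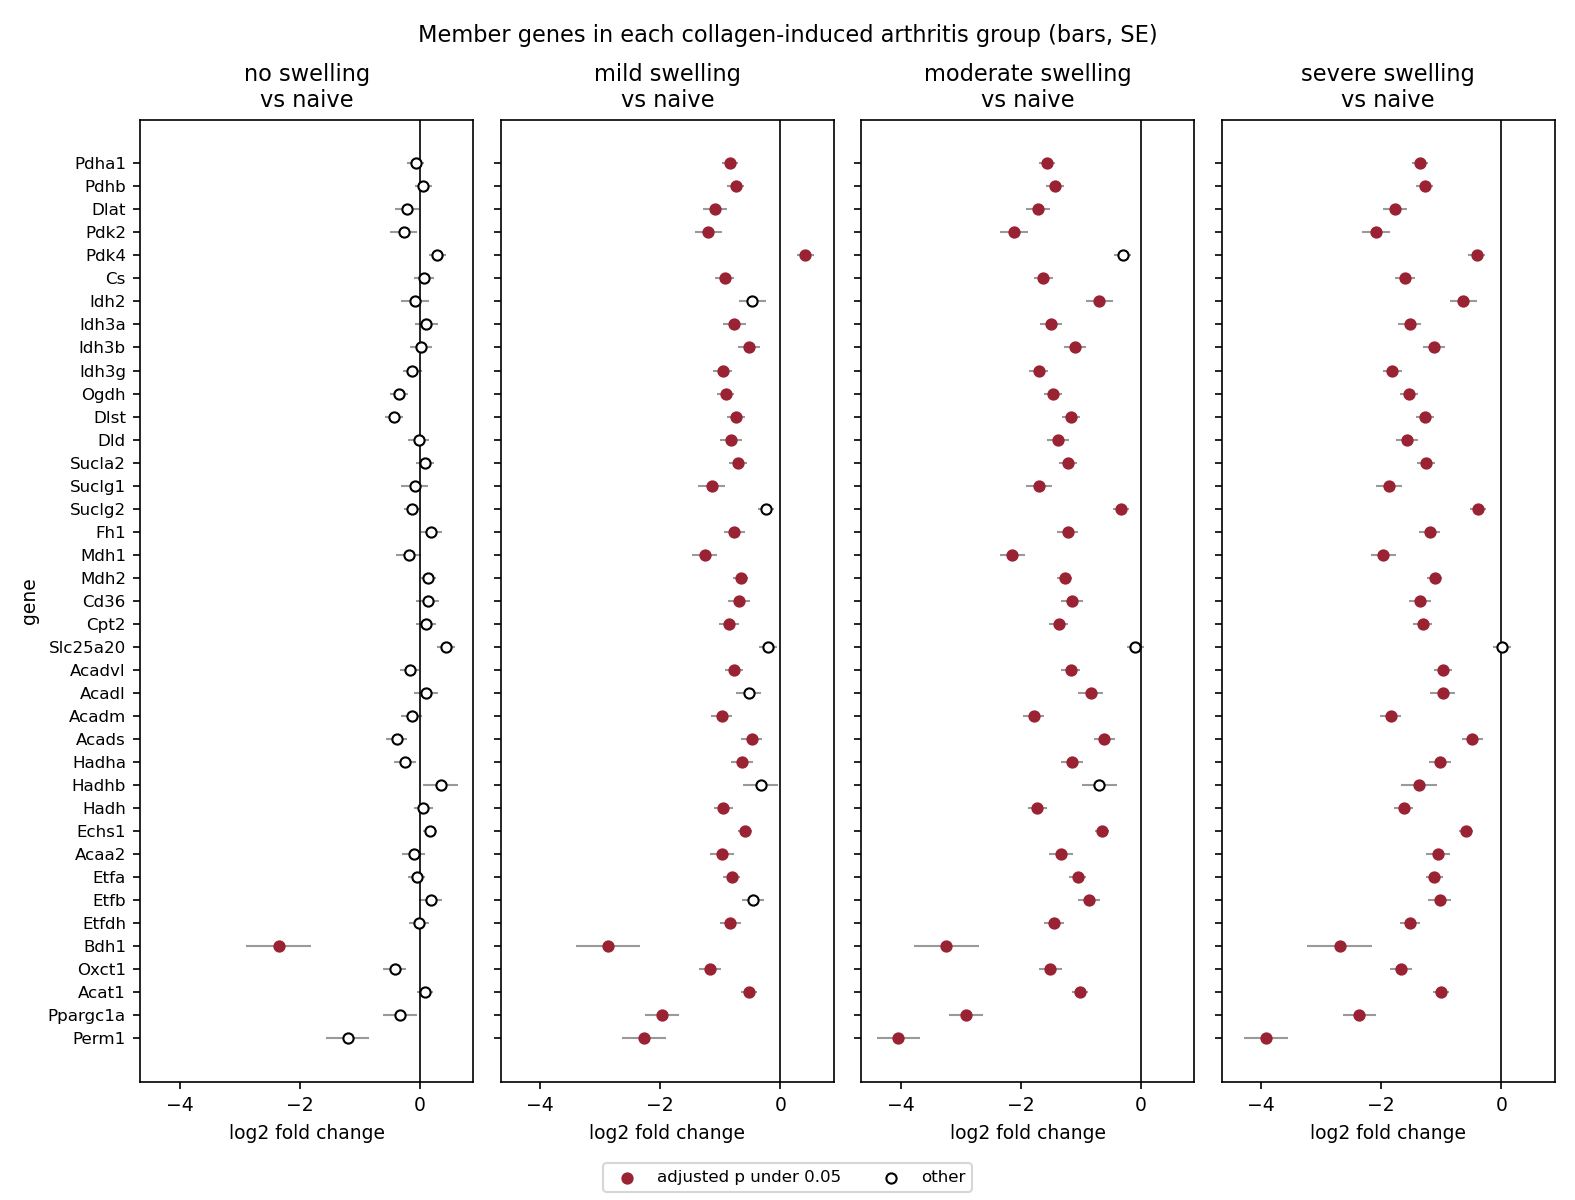
Log2 fold changes against naive (x axis) of 39 genes (y axis) in the 4 CIA groups, with standard errors as bars and filled points for adjusted p under 0.05. Filled points number 1 without swelling, 33 with mild (32 lower and 1 higher), 36 with moderate and 38 with severe swelling, and Perm1, Bdh1 and Ppargc1a lie farthest to the left in severe swelling.

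The step at which the genes changed was tested between neighbouring grades. From no to mild swelling 31 of 39 were called lower and 0 higher (median -0.79), against 15.6% of all genes called lower. On the hybridization controls 1 was lower and 1 higher in that step (median -0.017, all genes 0.71), and on the muscle genes 1 was lower and 3 higher (median -0.081, all genes 0.66). From mild to moderate swelling 16 were called lower and 0 higher (median -0.52), against 3.43% of all genes called lower. An unadjusted p under 0.05 was found for 28, a count for which the share of all genes is not given here. Perm1 fell by 1.76 ± 0.36 (adjusted p = 0.0127) and Pdk2 by 0.92 ± 0.23 (adjusted p = 0.0289) in that step. The call of Perm1 was lost without mild replicate 2 (0.0573), and that of Pdk2 without mild replicate 1 or 2 or moderate replicate 1, 2 or 3 (0.056 to 0.152). That of Pdk2 was also lost on the hybridization controls (-1.06, adjusted p = 0.107), on the muscle genes (-0.55, 0.0561) and with only both groups fitted (0.0983). That of Perm1 was also lost with averaged probe sets (-0.83, 0.0656) and with only both groups fitted (0.0883). The count moved with the arrays included. It was 26 without mild replicate 3, 6 without mild replicate 1, 2 without mild replicate 2, and 8, 4 and 7 without moderate replicates 1, 2 and 3. It was 26 with array quality weights and 0 when only both groups were fitted. From moderate to severe swelling limma called 0 of 39, with 1 lower and 0 higher at an unadjusted p under 0.05 (median 0.00), where 0% of all genes were called lower and 888 of 14314 had an unadjusted p under 0.05. The slope over the grades, scored from 0 to 3 over the 4 CIA groups, was called below 0 for 36 of 39 (median -0.45 per grade), against 22.7% of all genes. As deposited, the mean of 37 genes fell from both unswollen groups to mild and again to moderate swelling, the exceptions being Pdk4 and Slc25a20. The share of all genes that took this course is not given here.

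Among the neighbouring pathway genes, of which 72 of 79 had a probe set and were tested, some genes were called in each direction. Of 17 other TCA and pyruvate genes 11 fell and 5 rose in severe swelling (median -1.32), where 22.9% of all genes were called lower and 32.3% higher. Their median stayed below 0 under all scalings tried. Sdha, the flavoprotein subunit of succinate dehydrogenase, fell from 5387 ± 278 (SD, n = 3) in naive to 1887 ± 165 in severely swollen joints. Pcx, which encodes pyruvate carboxylase, fell from 874 ± 17.4 to 221 ± 23.7, and the malic enzyme genes Me1 and Me3 fell from 2732 ± 128 to 699 ± 92.8 and from 846 ± 31.7 to 200.0 ± 23.9. Pdk3, a further pyruvate dehydrogenase kinase, rose from 7.4 ± 6.66 to 138 ± 28.1. Its mean was 12.1 without, 77.5 with mild and 139 with moderate swelling. Idh1, the cytosolic isocitrate dehydrogenase, rose from 483 ± 56.1 to 1195 ± 26.2, and Pck2, mitochondrial phosphoenolpyruvate carboxykinase, from 64.2 ± 15.3 to 201 ± 36.4.

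Of 25 other fatty acid and ketone genes 13 fell and 4 rose in severe swelling, where 22.9% of all genes were called lower and 32.3% higher. Their median of -0.43 turned to 0.07 with scaling on hybridization controls and to 0.29 on muscle genes. The median of all tested genes was 0.11 as deposited and moved to 0.53 and 0.84 on these scalings. Eci1, an enoyl-CoA isomerase, fell from 1074 ± 15.8 to 338 ± 45.6, the acyl-CoA thioesterase gene Acot13 from 1673 ± 110 to 429 ± 67.4, and Acad9, an acyl-CoA dehydrogenase also needed to assemble complex I, from 291 ± 10.7 to 96 ± 14.8. Cpt1a, the carnitine palmitoyltransferase found outside muscle, rose from 169 ± 28.1 in naive to 642 ± 73.3. The activating enzyme gene Acsl5 rose from 169 ± 15.8 to 451 ± 63.7, and Slc16a1, a transporter of lactate and ketone bodies, from 724 ± 21.3 to 1523 ± 96.7. Of 10 peroxisomal genes 7 fell, among them the transporter genes Abcd2 (357 ± 51.1 to 63.7 ± 25.5) and Abcd3 (1032 ± 37.6 to 609 ± 61.6), the bifunctional enzyme gene Ehhadh (62.6 ± 4.83 to 26.7 ± 2.21) and Crot (503 ± 48.2 to 305 ± 74.8), and 1, Decr2, rose (89.2 ± 16.5 to 125 ± 4.99). Their median was -0.60 as deposited, with 1 lower and 1 higher on the hybridization controls (median -0.10) and 1 lower and 5 higher on the muscle genes (median 0.28), where Abcd3 and Crot turned (0.13 and 0.14, not called). The shares of all genes called under these scalings are not given here, so these counts have no such background. Decr2 was not called after quantile normalization or alignment of the array medians.

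Of 20 other regulators of oxidative metabolism 11 fell and 3 rose in severe swelling (median -0.62), where 22.9% of all genes were called lower and 32.3% higher. The scaling on muscle genes gave 4 lower and 9 higher (median 0.25). In severe swelling the median of all tested genes was 0.53 on the hybridization controls and 0.84 on the muscle genes. The shares of all genes called under these scalings are not given here. Esrra, the estrogen-related receptor that PGC-1 alpha works through, fell from 588 ± 24.9 to 129 ± 24.5, Prkaa2, the muscle form of the AMP-activated kinase, from 2769 ± 156 to 666 ± 212, and Mef2c, a muscle transcription factor, from 4641 ± 119 to 2101 ± 541. Hif1a, which encodes the hypoxia-inducible factor, rose from 315 ± 29.9 to 3245 ± 494, Pprc1, a relative of Ppargc1a, from 171 ± 34.4 to 287 ± 24.8, and Nrf1, nuclear respiratory factor 1, from 74.4 ± 12.7 to 122 ± 21.8. Of 19 genes of mitochondrial import, channels and shape, 15 fell and 0 rose (0 also by unadjusted p), with a median of -0.84 that became -0.33 on the hybridization controls and 0.05 on the muscle genes, among them Immt (1779 ± 39.6 to 583 ± 152), Vdac3 (5100 ± 248 to 2036 ± 265), Vdac2 (4938 ± 206 to 2606 ± 119) and Timm23 (4502 ± 235 to 2395 ± 279). The calls of Mef2c, Vdac2 and Timm23, and of Ehhadh, Abcd3 and Crot above, were lost with scaling on hybridization controls or on muscle genes.

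Markers of the tissues that hold these pathways moved with them in part. Of 17 markers of all muscle fibres (18 listed), 13 fell and 0 rose in severe swelling, where 22.9% of all genes were called lower (0 also by limma's unadjusted p), with a median of -0.61 against -1.31 for the 39 genes. On the hybridization controls 6 were lower and their median was -0.10, against -0.81 for the 39 genes, and on the mean of these markers themselves their median was 0.28, against -0.44. Their summed signal was between 110614 and 124419 in naive joints, 125882 and 128539 without, 73508 and 86801 with mild, 54356 and 74804 with moderate and 76008 and 90824 with severe swelling. Acta1 and Ckm, the brightest of them, were at 11593 ± 3080 and 10641 ± 2520 in severe swelling, where neither was called. Of 14 fast-fibre markers 4 fell and 0 rose (6 and 0 by unadjusted p), a share near that of all genes, with a median of -0.23 that turned to 0.28 on the hybridization controls and 0.66 on the muscle genes, and their summed signal went from between 132824 and 154241 in naive to between 102114 and 143336 in severely swollen joints. None of these markers was at 0 on any array, and their part in the fall of the 39 genes was not tested. In severe swelling the median of all tested genes was 0.53 on the hybridization controls and 0.84 on the muscle genes. The shares of all genes called under these scalings are not given here.

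Among the slow-fibre markers some were called lower in CIA joints without swelling. Of 9 of them 3, Atp2a2, Tnnc1 and Tnni1, were called lower and 0 higher without swelling (7 and 1 by limma's unadjusted p, median -2.25), against 1.76% of all genes called lower. In severe swelling 6 were called lower and 1 higher, against 22.9% and 32.3% of all genes. Their summed signal was between 10137 and 17436 in naive joints, 2177 and 8718 without, 4168 and 6907 with mild, 4944 and 5648 with moderate and 4849 and 4924 with severe swelling. Atp2a2, the slow-fibre calcium pump, fell from 3160 ± 573 in naive to 1507 ± 197 in severe swelling, a call lost under the other scalings except alignment of the array medians, while Tpm3, a tropomyosin that cells other than muscle also make, rose from 529 ± 41.6 to 2183 ± 139. Myh7, the slow myosin heavy chain, had signals of 1373, 2704 and 1201 on the naive arrays, 87.4, 763 and 65.5 without swelling, 575, 503 and 35.7 with mild, 124.5, 44.6 and 104 with moderate, and 124, 26.6 and 134 with severe swelling, so that all CIA arrays lay below the naive ones. Whether Bdh1, Perm1 and Oxct1 moved with slow fibres was not tested.

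Of 10 measured fat cell markers 6 fell and 1 rose in severe swelling, against 22.9% of all genes called lower and 32.3% higher. Their summed signal was between 7926 and 11097 in naive and between 5179 and 6837 in severely swollen joints. Of 6 brown fat markers 2 passed the filter, and their summed signal was between 116 and 151 in naive and 72.6 and 111 in severely swollen joints. The fat cell median stayed below 0 under all scalings tried. Of the markers of incoming and resident cells, 12 of 12 of macrophages, 12 of 12 of fibroblasts, 6 of 9 of neutrophils, 4 of 8 of endothelium and 5 of 7 of cartilage rose in severe swelling and 0 fell (0 also by limma's unadjusted p), where 32.3% of all genes were called higher and 22.9% lower. Their medians stayed above 0 under all scalings tried. Summed macrophage markers (12) went from between 3597 and 3959 to between 16145 and 22124, neutrophil markers (9) from between 220 and 258 to between 9189 and 13080, and fibroblast markers (12) from between 25786 and 26863 to between 57616 and 86125. RNA quality was read from the actin controls, whose 3' over 5' signal ratio rises as RNA degrades, and which gave 0.977 in naive, 1.10 without, 1.16, 1.23 and 1.25 at the mild, moderate and severe grades. The same ratio of the Gapdh controls was 0.853, 0.846, 0.848, 0.828 and 0.891 in that order. The part of these ratios in the values of the 39 genes was not tested.

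**Figure D4:**
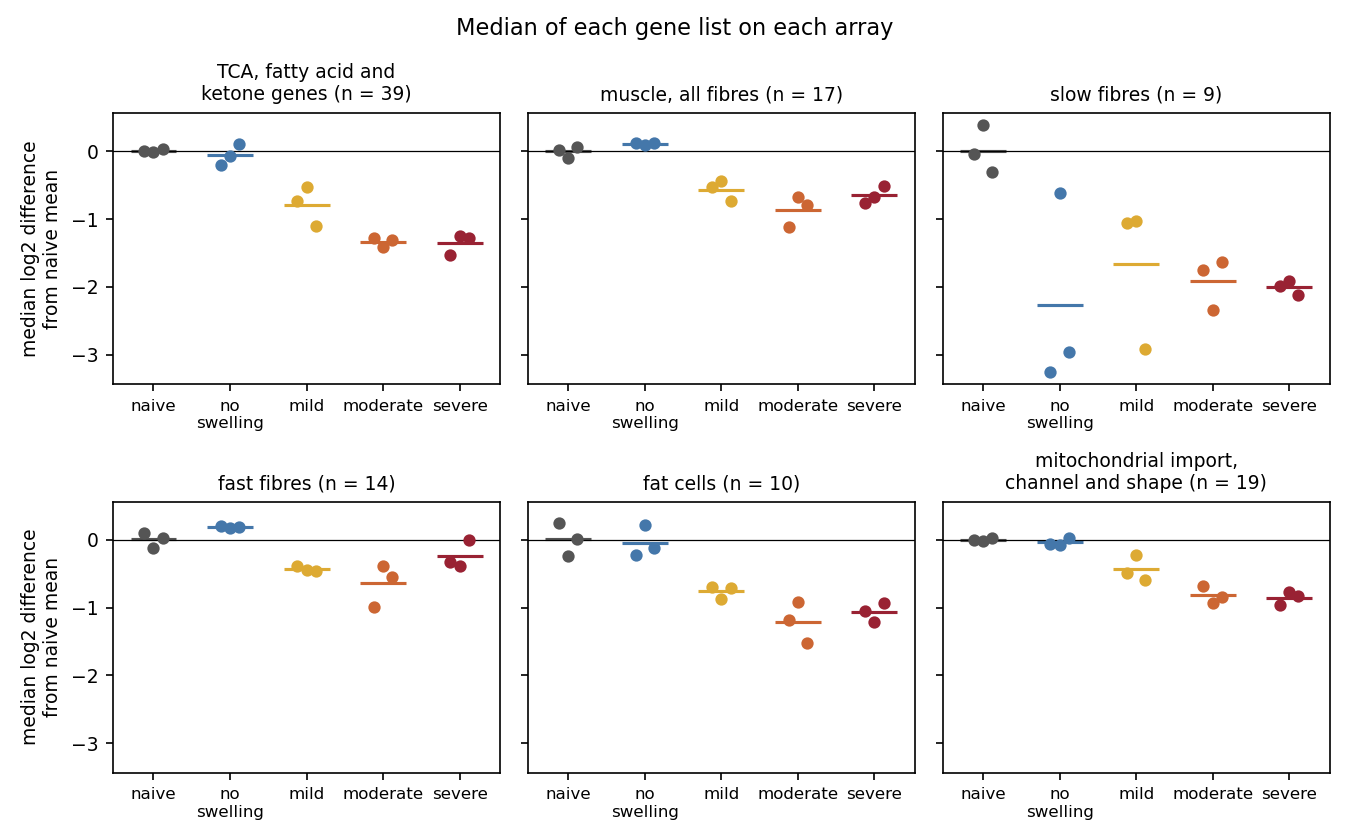
Median log2 difference from the naive mean (y axis) over the genes of 6 lists on each array (points; group means as bars), by swelling. The 39 genes reach medians between -1.53 and -1.25 with moderate and severe swelling, markers of all muscle fibres lie between -1.12 and -0.52 there, and slow-fibre markers are already between -3.25 and -0.61 without swelling.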

How the data were processed

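Knee joint synovium RNA was hybridised to 15 one-colour arrays (5 groups of 3) with 45101 probe sets. The deposited values are linear intensity signals from MAS5, per the submitters' processing notes, with the software version not given in the sources used here. In the deposited table the trimmed mean of each array was 150, as left by scaling of each array to a common level. Groups came from the labels. Of the probe sets, 34958 had 1 gene symbol in the platform annotation, 932 several and 9211 none, and they named 18193 genes. The probe set with the highest mean stood for a gene. Genes above their array's 40th percentile on at least 3 arrays (14314) were tested as log2(signal + 16) with lmFit and eBayes (intensity trend) in limma 3.58.1 (R 4.3.3) on all 5 groups (10 residual and 5.52 prior degrees of freedom), with Benjamini-Hochberg adjustment over all of them. The steps were tested on simulated data, with most genes left unshifted. Of genes lowered by 0.5, 1 and 2 on the log2 scale, 6%, 70% and 100% were called without swelling against naive. In severe swelling against naive 20%, 64% and 96% were called. Small falls were thus mostly missed.

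The genes and lists were chosen with earlier results of these data known. By the rule for naming, values of every array were given, in each role group, for the pair of genes with the lowest F test p and the 1 with the highest, and for Pdk2, Pdk4, Ppargc1a and Perm1. Up to 4 genes of each pathway list by F test p, up to 3 that went against its majority, and the brightest of each cell type list could be named. Myh7, Tnnc1 and Tnni1 were chosen after their values were seen. Alternatives were other pseudocounts (1 and 64), filters, scalings, probe-set rules, array weights, only the groups compared, a replicate block and each array left out. Promoters came from RefSeq.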

Additional observations from a re-analysis of the deposited data

How the results depend on the processing

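Of 70 results on named genes, 46 were called, and 1813 of their 1960 values under alternatives kept sign and side of the threshold. Of the 114 that changed call or called direction, 55 did so under the 4 scalings, 41 with a single array left out and 18 otherwise, and the cause was not tested. A further 33 changed sign with no call in either setting, 25 of them without swelling. On hybridization controls the counts called lower and the medians became 2 without swelling, 3 (-0.13) in mild, 21 (-0.84) in moderate and 19 (-0.81) in severe swelling. There, 1 was lower and 1 higher from no to mild swelling (-0.017), 1 lower from mild to moderate, 15 lower from no to severe (-0.64), 21 along the slope (-0.27) and 22 in any group. On muscle genes they became 0 without swelling, 7 lower and 3 higher (-0.10) in mild, 17 and 4 (-0.30) in moderate, and 21 and 3 (-0.44) in severe swelling. There, 1 was lower and 3 higher from no to mild (-0.081), 4 and 1 from mild to moderate (-0.18), 21 and 3 from no to severe (-0.36), 21 and 3 along the slope (-0.14), and 25 differed in any group. Aligned medians gave 0 higher in mild swelling and medians of -1.52 in severe swelling, -0.96 from no to mild and -1.57 from no to severe. Quantile normalization gave 1 higher from no to mild (-0.54) and -0.96 from no to severe. Averaging a gene's probe sets gave medians of -1.15 in moderate and -1.14 in severe swelling and -1.06 from no to severe. Counting every probe set gave 2 lower without swelling and 2, 2, 3, 1 and 2 higher in moderate and severe swelling, from no to mild, from no to severe and along the slope. Without swelling, pseudocounts of 1 and 64 gave 0 and 2 lower, array weights 3, and fitting only both groups 3 lower and 1 higher. From mild to moderate, array weights gave 26 and only both groups 0.

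The 13 values that turned with a call in either setting were Suclg2 (0.43), Slc25a20 (0.46), Acads (0.18) and Acat1 (0.15) in mild swelling on muscle genes, and Acads (0.14) and Acat1 (0.11) there on hybridization controls. In severe swelling they were Pdk4 (0.11 on hybridization controls, 0.49 on muscle genes), Suclg2 (0.11 and 0.48), Acads (0.011 and 0.38) and Slc25a20 (-0.34 with averaged probe sets). With no call in either setting, Suclg2 (0.40), Slc25a20 (0.42) and Etfb (0.18) turned in mild swelling on hybridization controls and Etfb (0.22) on muscle genes, and Slc25a20 in severe swelling under 4 alternatives.

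Leaving out each array in turn gave 0 to 3 lower without swelling (median -0.13 to 0.05), 29 to 35 lower and 0 to 1 higher in mild (-0.93 to -0.62), 35 to 37 in moderate (-1.35 to -1.27) and 34 to 38 in severe swelling (-1.41 to -1.23). It gave 27 to 33 from no to mild (-0.87 to -0.65), 2 to 26 from mild to moderate (-0.69 to -0.38), 0 from moderate to severe (-0.08 to 0.08), 34 to 36 from no to severe (-1.41 to -1.20), 34 to 36 along the slope (-0.47 to -0.41) and 36 to 39 in any group. Counts called higher stayed 0 outside mild swelling.

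Deviations of arrays with the same replicate number had a median r of -0.04 over 30 pairs (-0.51 to 0.33). The median was 0.02 over 60 pairs of unlike number (-0.27 to 0.39). This check cannot show whether some arrays were handled together, and the labels used here do not say. A replicate block gave 1, 32, 35 and 38 lower against naive without, with mild, moderate and severe swelling, and 12 from mild to moderate. Other filters and no intensity trend changed no count by over 1.5 times.

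With 3 arrays a group, the number of arrays limits the precision, and dim signals such as those of Bdh1 depend on the pseudocount. Array level, cell make-up and RNA amount per cell cannot be told apart here.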
